A study of Mus musculus with 9 samples.

Results

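The 36 genes described here encode the route by which glucose is taken up, broken down to pyruvate, exported as lactate, or diverted into the pentose phosphate and glycerol phosphate pathways. They were listed by name, by a rule that uses no measured level, although earlier results of these data were known, from the 55487 genes of the deposited count table, and all 36 were found and passed the filter on low counts. By step they comprised 2 glucose transporters, 15 glycolytic enzymes, 4 bifunctional enzymes of the PFKFB family, 5 genes of lactate formation and export, 8 genes of the pentose phosphate pathway and 2 glycerol phosphate dehydrogenases. The samples were retinal explants, whole retinas freed of sclera and pigment epithelium, from C57BL/6J wild-type animals aged 28 postnatal days. The culture lasted 48 h, glucose was 5 mM in all media, and the culture medium held either no inhibitor (control, 5 libraries) or 20 mM 2-deoxyglucose (2-DG, 4 libraries). The retinas were then kept for 1 h in Krebs' Ringer's medium. The protocol attached to all 9 samples names the 2-DG medium, so the groups were taken from the treatment labels, which also place all libraries in 1 batch. The labels call the libraries biological replicates and do not say how many retinas or animals went into each.

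Glucose enters retinal cells through the facilitative transporters GLUT1 and GLUT3 and is trapped by hexokinase as glucose 6-phosphate, from which glycolysis yields ATP and pyruvate. The retina, and its photoreceptors above all, converts much of its glucose to lactate even when oxygen is available, and exports the lactate with a proton through monocarboxylate transporters. The oxidative branch of the pentose phosphate pathway takes the same glucose 6-phosphate and yields NADPH, which is used against oxidative damage and in lipid synthesis, and its non-oxidative branch returns sugars to glycolysis. 2-DG is a glucose analog that is taken up by the same transporters and phosphorylated by hexokinase, and the product accumulates and inhibits hexokinase and glucose phosphate isomerase. The comparison asked whether the mRNAs of the enzymes around this block differed in level after 48 h of 2-DG.

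Total estimated counts ranged from 11318087 to 51802230 per library, with 25405 to 31231 genes detected. Markers of retinal neurons and Müller glia were present in every library, and Rpe65, a gene of the pigment epithelium that is not part of the neural retina, was at or below 0.315 CPM (counts relative to the library size as scaled by the TMM method) in all libraries except 2-DG replicate 3, with 6.67 CPM. The 7 pigment epithelium markers other than Rlbp1, which Müller glia express too, summed to 169.1 CPM in 2-DG replicate 3, 20 CPM in 2-DG replicate 4 and 1.44 to 5.91 CPM elsewhere. Control replicate 2 stood apart in rod genes, 10 of which summed to 45024 CPM against 5523 to 17419 CPM in the other 8, and in 7 ganglion cell genes, which summed to 1468 CPM against 202.7 to 744.3 CPM. The 7 cone genes summed to 541.0 CPM in control replicate 2 and 766.2 CPM in 2-DG replicate 3 and to 60.3 to 97.7 CPM elsewhere. 2-DG replicate 4 had 13.6% of its counts in mitochondrial genes, against 3.4% to 10.7% in the other libraries. In these whole explants, fewer cells of a type and less mRNA per cell cannot be told apart.

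None of the 36 genes passed an adjusted p of 0.05 between 2-DG and control in edgeR's quasi-likelihood test, the smallest being 0.577, and neither did any of the 21049 genes tested (0%). DESeq2 gave 0 members as well (1.35% of all genes), limma-voom with quality weights 1 (5.81%) and edgeR with 2 surrogate variables, which absorb variation shared by many genes, 2 (3.44%). At an unadjusted p under 0.05, the edgeR count was 3 of 36 members (8.33%), near the 7.25% of all genes tested. These were Pgd and Taldo1 of the pentose phosphate pathway, with higher levels under 2-DG (2.42% of all genes were called higher), and Pfkfb3 with a lower level (4.83% were called lower). The other tools gave 2 members with DESeq2 (10.3% of all genes), 7 with limma-voom (26%) and 11 with surrogate variables (19.8%). With limma-voom these were Hk1 and Pgd above control and Slc2a1, Hk2, Pfkfb1, Pfkfb3 and Slc16a3 below it. With surrogate variables Gpi1, Pfkl, Aldoa, Gapdh, Pgam1, Pkm, G6pdx, Pgd and Taldo1 were above control and Slc2a1 and Pfkfb3 below it. The median log2 fold change, 2-DG over control, was 0.04 over the members and -0.01 over all genes. No member had groups that did not overlap, against 2.93% of all genes. The 95% interval of the fold change lay within 2-fold in either direction for 20 of 36 members (55.6%, against 33.9% of all genes). For the other 16 it reached beyond 2-fold in at least 1 direction.

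By step, the fitted values of the 5 lactate genes were all below 0 (median -0.13) and those of the 8 pentose phosphate genes all above 0 (median 0.34). All 5 lactate genes stayed below 0 under all 4 ways of scaling the libraries, but 3 of 5 did without control replicate 2 (Ldha was then at 0.21 and Bsg at 0.08), with limma-voom and with 2 surrogate variables, and 4 of 5 without 2-DG replicate 4. Of the 8 pentose phosphate genes 6 were above 0 with upper-quartile scaling, with library size alone, with limma-voom and without 2-DG replicate 4. Of the 15 glycolytic genes 10 were above 0, with a median of 0.04. That number was 14 without control replicate 2 and 5 without control replicate 4, control replicate 5 or 2-DG replicate 3. With upper-quartile scaling 7 of 15 were above 0, and of all 36 members 15 were above 0 in place of 22.

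**Figure D1:**
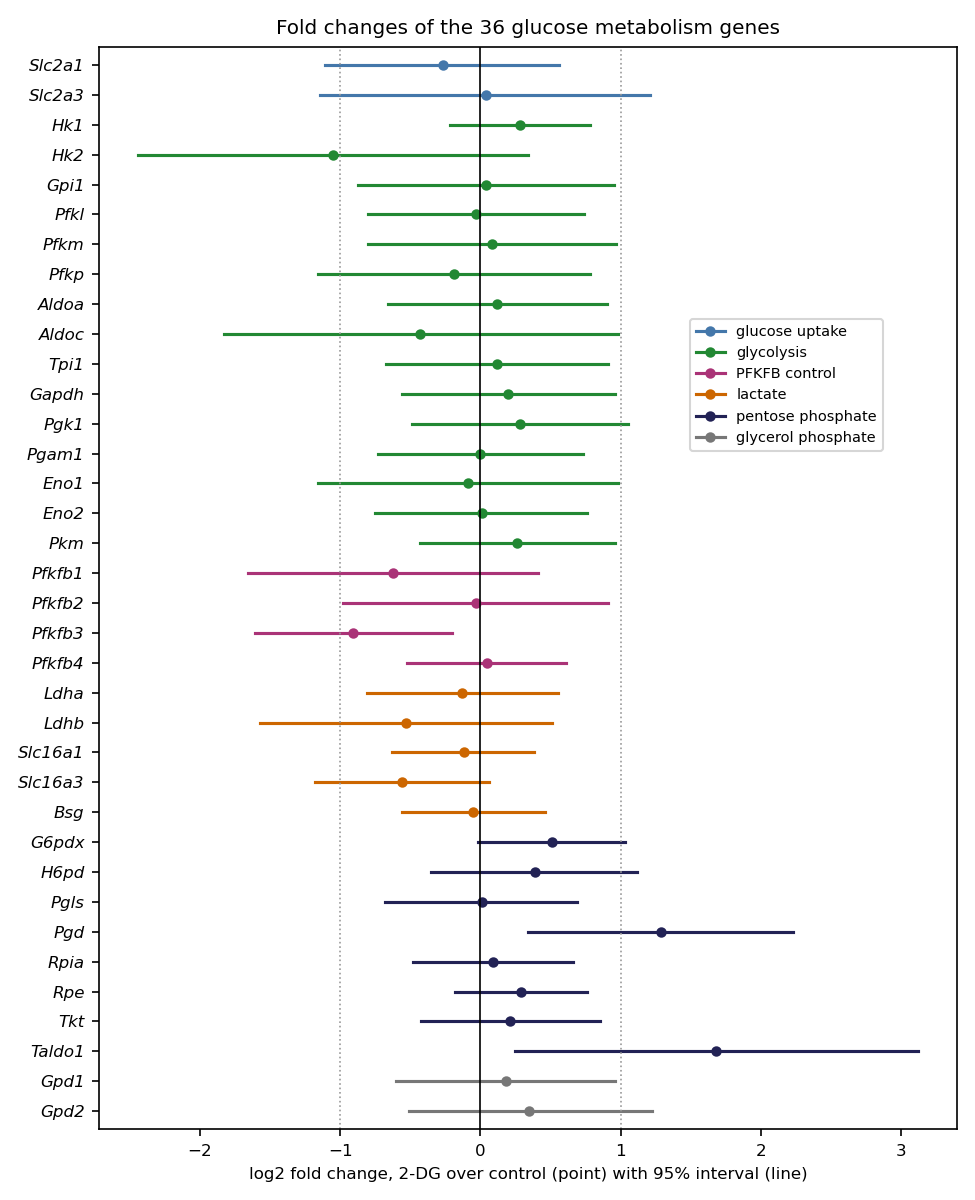
Log2 fold change (2-DG over control, horizontal axis) of the 36 genes by edgeR, with 95% intervals as lines and colors for the 6 steps; dotted lines mark a 2-fold change in either direction. The intervals of Pfkfb3, Pgd and Taldo1 alone leave out 0 (unadjusted for the number of genes), and the points of most glycolytic genes lie close to 0.

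The step that consumes 2-DG begins with the transporters. Slc2a1, which encodes GLUT1, was at 251.8, 167.5, 299.3, 443.6 and 513.5 CPM in control replicates 1 to 5 and at 234.3, 217.9, 200.7 and 455.5 CPM in 2-DG replicates 1 to 4. 2-DG replicates 1, 2 and 3 lay low in the control range and replicate 4 near its top, giving a log2 fold change of -0.27 (standard error, SE, 0.38) and an adjusted p of 0.882 by edgeR. The value was -0.62 without 2-DG replicate 4, -0.08 without control replicate 5, -0.59 with limma-voom (unadjusted p = 0.0205, adjusted p = 0.121) and -0.32 with 2 surrogate variables (unadjusted p = 0.0323, adjusted p = 0.205). Slc2a3, which encodes the neuronal transporter GLUT3, was at 124.9, 56.2, 74.1, 63.2 and 23.0 CPM in control and 83.5, 60.1, 118.0 and 18.3 CPM under 2-DG. The groups spanned the same range, and the log2 fold change was 0.04 (SE 0.53, adjusted p = 0.991, edgeR). Per kilobase of exon, Slc2a1 was the higher of the pair in all 9 libraries.

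Hexokinase phosphorylates glucose and 2-DG alike. Hk1, the form that prevails in neurons, was at 416.4, 399.6, 523.7, 388.2 and 444.9 CPM in control and 586.5, 642.0, 465.5 and 412.5 CPM under 2-DG. Its 2-DG libraries overlapped the control range (log2 fold change 0.28, SE 0.23; adjusted p = 0.818, edgeR). With limma-voom the value was 0.43 (unadjusted p = 0.013, adjusted p = 0.0987). Hk2, the hexokinase found in photoreceptors and in rapidly growing cells, was at 66.8, 595.9, 125.0, 154.9 and 230.0 CPM in control and 80.2, 91.5, 55.2 and 225.8 CPM under 2-DG. Hk2 had the lowest fitted value of all members in the edgeR fit of gene counts, -1.05 on the log2 scale (SE 0.63; adjusted p = 0.76). The Hk2 value was -0.74 with limma-voom (unadjusted p = 0.0474, adjusted p = 0.187) and -0.37 with 2 surrogate variables. With sums of transcript counts, an alternative chosen after seeing the data, Hk2 was at -0.67 and Pfkfb3 was lower, at -0.90. Each 2-DG library was below the Hk2 control mean of 234.5 ± 210.4 CPM (SD, n = 5). That mean rested on control replicate 2, without which the log2 fold change was -0.35. Without 2-DG replicate 4 it was -1.63, with an unadjusted p of 0.0302 (adjusted p = 0.349, edgeR). Per kilobase in the gene counts, Hk2 exceeded Hk1 in control replicate 2 alone. The transcript counts of that library were less clear. Relative to the unscaled library total, Hk2-201 (5513 bases) was at 197.4 CPM and Hk1-201 (3639 bases) at 297.8 CPM. Hk2-202, a noncoding transcript of 594 bases, was at 48 CPM there. In the gene counts the log2 ratio of Hk2 to Hk1 averaged -1.28 ± 1.22 in control and -2.40 ± 1.03 under 2-DG (SD, n = 5 and 4; exact two-sided permutation p = 0.175, 0.603 after adjustment over 10 ratios).

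The enzymes from phosphoglucose isomerase to pyruvate kinase had no member that passed an adjusted p of 0.05 with edgeR or in the alternatives run. With 2 surrogate variables 6 of the 15 glycolytic genes had an unadjusted p under 0.05, all above control, against 19.8% of all genes, and Gpi1 among them was at 0.50 (adjusted p = 0.0646). Gapdh, Aldoa and Pkm, encoding glyceraldehyde phosphate dehydrogenase, aldolase A and pyruvate kinase M, had the highest levels per length of all members, with means over the 9 libraries of 466.7, 302.3 and 252.1 CPM per kilobase. Gapdh averaged 1808 ± 696.8 CPM in control and 2079 ± 528.5 CPM under 2-DG (SD, n = 5 and 4), a log2 fold change of 0.20 (SE 0.34). Aldoa had a log2 fold change of 0.12 (SE 0.35) and Pkm one of 0.26 (SE 0.31). The other 10 genes of this stretch, Gpi1, Pfkl, Pfkm, Pfkp, Aldoc, Tpi1, Pgk1, Pgam1, Eno1 and Eno2, had values from -0.43 (Aldoc) to 0.28 (Pgk1), with adjusted p from 0.871 to 1 by edgeR. Gpi1, the isomerase that 2-deoxyglucose 6-phosphate inhibits, was at 486.8, 1245, 353.3, 340.8 and 369.1 CPM in control and 534.9, 480.1, 707.0 and 578.4 CPM under 2-DG. Control replicate 2 was its highest library and control replicates 3, 4 and 5 its lowest, and its log2 fold change was 0.04 with all libraries and 0.57 without control replicate 2 (unadjusted p = 0.0274, adjusted p = 0.445, edgeR).

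Many glycolytic genes varied widely between control libraries. Control replicate 2 was the highest of the 9 libraries in 16 of 36 members (44.4%, against 23% of all genes), among them 10 of the 15 glycolytic enzymes and 4 of the 5 lactate genes, and in none of the 8 pentose phosphate genes. In 10 of 36 members, such as Hk2, Aldoc, Ldhb and Pfkp, it was at least 1.5-fold above every other library, against 10.1% of all genes. Across the 15 glycolytic genes its median deviation from the gene's mean was 0.93 on the log2 scale, against -0.36 to 0.34 in the other libraries. The same library had the highest rod and ganglion cell marker sums, and the part of its cell composition in these levels was not tested. Without it, the median log2 fold change of the members was 0.21, and Pfkfb3, Pgd, Gpi1 and Taldo1 had an unadjusted p under 0.05 (8.99% of all genes did).

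**Figure D2:**
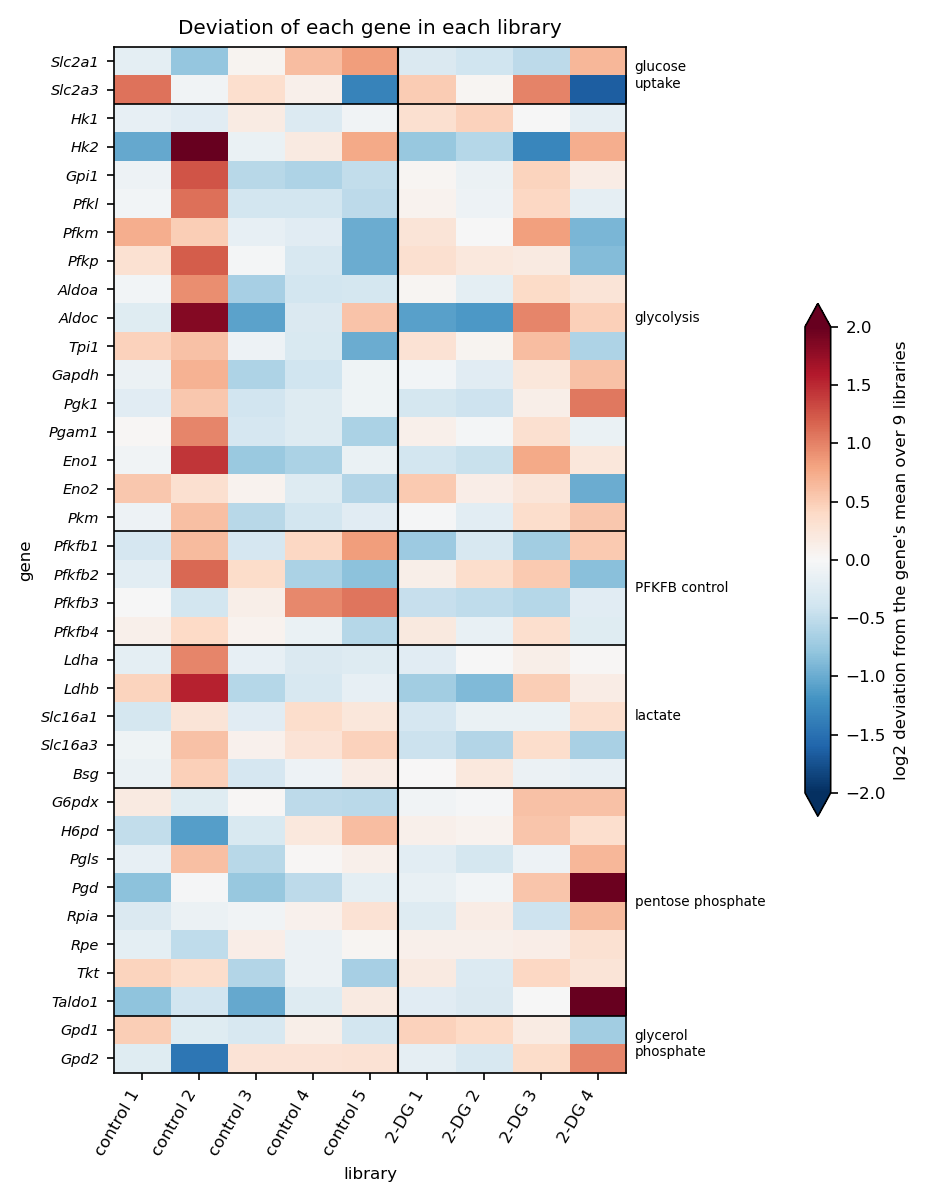
Log2 deviation of each of the 36 genes (rows, grouped by step) from its mean over the 9 libraries (columns; a vertical line separates control from 2-DG). Control replicate 2 is red over most of glycolysis and lactate, and 2-DG replicate 4 is darkest in Pgd and Taldo1.

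Pyruvate kinase M is made as M1 or M2 from mutually exclusive exons of equal length, and the forms differ in how they are regulated. Pkm lies at chr9:59656368-59679375 on the plus strand (GRCm38). The M1 exon is at chr9:59675029-59675195 and the M2 exon at chr9:59675568-59675734, both coding and 167 bases long. They are shown because they hold the coding difference between M1 and M2. The annotated transcripts also differ in length outside these exons, and reads there enter the estimated counts too. Capitals mark the 64 bases at which they differ (61.7% identical).

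Pkm M1 exon: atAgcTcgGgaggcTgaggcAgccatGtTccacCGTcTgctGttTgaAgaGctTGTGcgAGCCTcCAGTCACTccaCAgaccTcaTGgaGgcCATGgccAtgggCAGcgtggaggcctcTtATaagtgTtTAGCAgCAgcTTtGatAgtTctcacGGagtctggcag
Pkm M2 exon: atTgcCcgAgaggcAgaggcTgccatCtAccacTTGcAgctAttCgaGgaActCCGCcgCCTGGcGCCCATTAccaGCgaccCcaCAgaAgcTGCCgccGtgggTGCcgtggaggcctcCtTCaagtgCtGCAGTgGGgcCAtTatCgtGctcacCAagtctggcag

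The M2 transcript held most of the counts in every library. The M1 transcript made up 32%, 10.6%, 24.3%, 15.7% and 12.7% of the M1 plus M2 counts in control replicates 1 to 5, and 22.6%, 15.9%, 38.7% and 14.5% in 2-DG replicates 1 to 4. The highest share was in 2-DG replicate 3, which also had the highest Rpe65 level, and the lowest in control replicate 2, which had the highest rod and ganglion cell sums; their part in the share was not tested. The means were 19.1% ± 8.91 in control and 22.9% ± 11.1 under 2-DG (SD, n = 5 and 4). Their difference of 3.87 percentage points was within the spread (exact two-sided permutation p = 0.54) and became -1.38 without 2-DG replicate 3. This p is the smaller 1-sided p doubled, so it could not have gone as low as 0.00794. Of 51 annotated transcripts of Pkm and the hexokinases 26 could be tested, and none passed an adjusted p of 0.05 by edgeR, nor did any of the 62900 transcripts tested. One, Hk3-201, had an unadjusted p under 0.05 (0.0499, log2 fold change 2.61), beside 3.45% of all transcripts. Among the Hk1 transcripts, Hk1-201 took 34.5% to 71.5% of the gene's counts over the 9 libraries, and Hk1-205 was at 0 in 4 libraries of both groups and at up to 27.2% in 2-DG replicate 3.

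**Figure D3:**
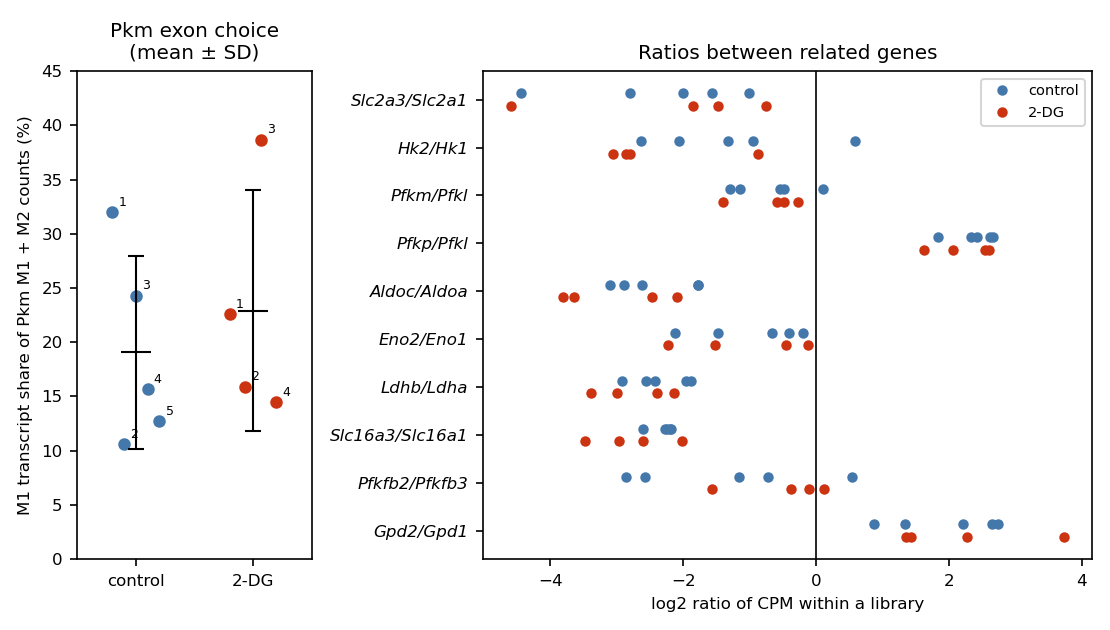
Left, percent of Pkm M1 plus M2 transcript counts that is M1 in each library (numbers are replicates; bar and whiskers are mean ± SD); right, log2 ratio of 2 related genes within each library, for 10 pairs. Control and 2-DG points overlap in the share and in all 10 ratios.

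The 10 ratios between related genes, which depend on scaling between libraries only through the 0.5 CPM added to each level, did not pass the test either. Exact two-sided permutation p values ran from 0.159 to 0.968, and from 0.603 to 0.968 after adjustment over the 10 ratios. They too are doubled 1-sided p values, so a single separated ratio could not have gone as low as 0.0794 after adjustment. The mean differences, 2-DG minus control, ran from -1.12 for Hk2 over Hk1 to 0.87 for Pfkfb2 over Pfkfb3. Per kilobase, Pfkp was above Pfkl, and Aldoa above Aldoc, Ldha above Ldhb and Slc16a1 above Slc16a3 in all 9 libraries, both with and without 2-DG.

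The PFKFB enzymes set the level of fructose 2,6-bisphosphate, the activator of phosphofructokinase, and the Pfkfb3 product favors its synthesis and thereby glycolysis. Pfkfb3 (ENSMUSG00000026773, chr2:11471433-11554077, minus strand, GRCm38) was at 177.0, 139.0, 193.5, 349.1 and 375.7 CPM in control replicates 1 to 5 and at 129.0, 125.1, 120.7 and 151.9 CPM in 2-DG replicates 1 to 4. The 2-DG libraries lay close together below 4 of the 5 controls, and 2-DG replicate 4 was above control replicate 2, so the groups overlapped by that pair. Means were 246.9 ± 107.7 CPM in control and 131.7 ± 13.9 CPM under 2-DG (SD, n = 5 and 4). The log2 fold change was -0.91 (SE 0.32, 95% interval -1.61 to -0.20), with an unadjusted p of 0.0167 and an adjusted p of 0.602 by edgeR. Leaving out any 1 library gave values from -1.06 to -0.71, with an unadjusted p under 0.05 each time. The adjusted p was 0.0333 with limma-voom, 0.0255 with 2 surrogate variables and 0.214 with DESeq2.

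Pfkfb3 has 2 RefSeq start sites that lie far apart, and the transcripts that begin within 1000 bases of the downstream site held 83.2% to 92% of the gene's transcript counts in control and 88.3% to 93.9% under 2-DG. The bases upstream of this site, chr2:11502102-11502340 on the minus strand (RefSeq, GRCm38.p6), are shown because they precede the start site with most of the Pfkfb3 transcript counts in every library. Capitals mark CACGTG, an E-box that also contains on both strands the ACGTG core bound by hypoxia-inducible factors and by MYC-related factors.

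Pfkfb3 upstream of the main start site: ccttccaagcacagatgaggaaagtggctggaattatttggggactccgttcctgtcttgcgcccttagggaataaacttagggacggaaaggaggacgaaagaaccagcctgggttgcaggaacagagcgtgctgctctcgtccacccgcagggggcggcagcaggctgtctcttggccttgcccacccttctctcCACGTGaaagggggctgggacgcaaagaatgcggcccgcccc

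CACGTG was found in 6.02% of 32851 RefSeq windows of 250 bases before a start site and ACGTG on either strand in 16.6%, the second including every CACGTG. Of 52 windows of the members, 5 held CACGTG and 17 held ACGTG, and 3 members had no window. These matches are letters only and say nothing of binding. Transcripts from the upstream Pfkfb3 site were at 11.4, 19.4, 18.1, 27.6 and 55.8 CPM in control and 6.13, 9.23, 9.57 and 12.4 CPM under 2-DG. The transcripts from the downstream site were at 158.0, 105.7, 172.8, 337.1 and 348.4 CPM in control and 121.0, 119.9, 100.9 and 158.9 CPM under 2-DG. Both sets were highest in control replicates 4 and 5, and this split was looked at after the gene's values were seen and was not tested.

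Control replicates 4 and 5, the highest for Pfkfb3, also had the highest Müller glia marker sums, 4499 and 7241 CPM, against 1200 to 3924 CPM elsewhere. All 8 markers of this list were detected, and Glul, encoding glutamine synthetase, was at 2848 and 4444 CPM in these libraries and 389.2 to 2154 CPM in the other 7. The part of Müller glia in the Pfkfb3 levels was not tested. The other members of the family were Pfkfb1, at 2.04, 4.51, 2.06, 3.77 and 5.27 CPM in control and 1.44, 2.08, 1.48 and 4.12 CPM under 2-DG, Pfkfb2 and Pfkfb4. Pfkfb1 was low throughout, at -0.62 on the log2 scale (SE 0.47; edgeR, adjusted p = 0.801). It was at -1.08 without 2-DG replicate 4 (unadjusted p = 0.0407, adjusted p = 0.377, edgeR) and at -0.82 with limma-voom (unadjusted p = 0.0309, adjusted p = 0.149). Pfkfb2 and Pfkfb4 were at -0.03 (SE 0.43) and 0.05 (SE 0.26).

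Lactate is formed by lactate dehydrogenase and leaves the cell through MCT1 and MCT4, the products of Slc16a1 and Slc16a3, with basigin (Bsg) as their partner at the membrane. Slc16a3 was at 17.0, 27.4, 19.2, 21.8 and 25.0 CPM in control and 13.2, 11.8, 23.2 and 11.4 CPM under 2-DG. 2-DG replicates 1, 2 and 4 were below every control and 2-DG replicate 3 was within the control range, giving a log2 fold change of -0.56 (SE 0.28, unadjusted p = 0.071, adjusted p = 0.713, edgeR). Without that library the value was -0.86 (unadjusted p = 0.00727, adjusted p = 0.747, edgeR). 2-DG replicate 3 also had the highest cone sum and the highest sum of pigment epithelium markers other than Rlbp1. Its Müller glia sum was 3924 CPM, against 1200, 1401 and 2540 CPM in 2-DG replicates 1, 2 and 4. The part of these cells in the Slc16a3 levels was not tested. Ldhb, whose subunit favors the conversion of lactate to pyruvate, was at 96.3, 207.0, 47.5, 56.7 and 63.6 CPM in control and 43.6, 38.3, 99.8 and 79.0 CPM under 2-DG. Its groups overlapped widely, and the log2 fold change was -0.53 (SE 0.47; adjusted p = 0.825, edgeR) and between -0.81 and -0.02 with 1 library left out. Ldha, Slc16a1 and Bsg had values of -0.13 (SE 0.31), -0.12 (SE 0.23) and -0.05 (SE 0.23). For Slc16a1 the 95% interval, -0.63 to 0.38, lay within 2-fold in either direction, as it did for Bsg and Ldha.

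The pentose phosphate pathway held the 2 members with the highest fitted values, and both were highest in 2-DG replicate 4. Pgd (ENSMUSG00000028961, chr4:149149991-149166771, minus strand), which encodes the second NADPH-yielding dehydrogenase of the oxidative branch, was at 54.0, 94.4, 56.2, 66.5 and 83.7 CPM in control and 86.6, 91.6, 140.1 and 373.6 CPM under 2-DG. All 4 2-DG libraries were above the control mean of 70.9 ± 17.6 CPM (SD, n = 5), and control replicate 2 was above 2-DG replicates 1 and 2. The log2 fold change was 1.29 (SE 0.43, 95% interval 0.34 to 2.23, unadjusted p = 0.0123, adjusted p = 0.577, edgeR). Without 2-DG replicate 4 it was 0.58 (unadjusted p = 0.0511, edgeR), and with any other library left out it was 1.20 to 1.52. The adjusted p was 0.0189 with 2 surrogate variables, 0.178 with DESeq2 and 0.144 with limma-voom, where the log2 fold change was 0.60.

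Taldo1 (ENSMUSG00000025503, chr7:141392199-141402968, plus strand) encodes transaldolase of the non-oxidative branch. It was at 97.0, 130.7, 83.8, 143.3 and 192.6 CPM in control and 146.1, 139.7, 169.4 and 1207 CPM under 2-DG. 2-DG replicate 4 was 6.27-fold above the next library, while the other 3 lay inside the control range. The log2 fold change of 1.68 (SE 0.65, unadjusted p = 0.0259, adjusted p = 0.636, edgeR) became 0.23 (unadjusted p = 0.436, edgeR) without that library. The unadjusted p by edgeR was 0.0531 without control replicate 1 and 0.058 without control replicate 3. With 2 surrogate variables the log2 fold change was 1.30 (unadjusted p = 0.00298, adjusted p = 0.0646), with limma-voom it was 0.39 (unadjusted p = 0.246), and DESeq2 gave no p for Taldo1. Pgd, Taldo1 and Gpd2 were the members in which 2-DG replicate 4 was at least 1.5-fold above all other libraries (3 of 36, against 3.99% of all genes). This library also had the highest mitochondrial share, the smallest scaling factor (0.82) and the highest sum of vessel and pericyte markers, 2549 CPM against 377.4 to 2081 CPM in the others, with all 8 of those markers detected; their part in the levels of Pgd and Taldo1 was not tested.

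**Figure D4:**
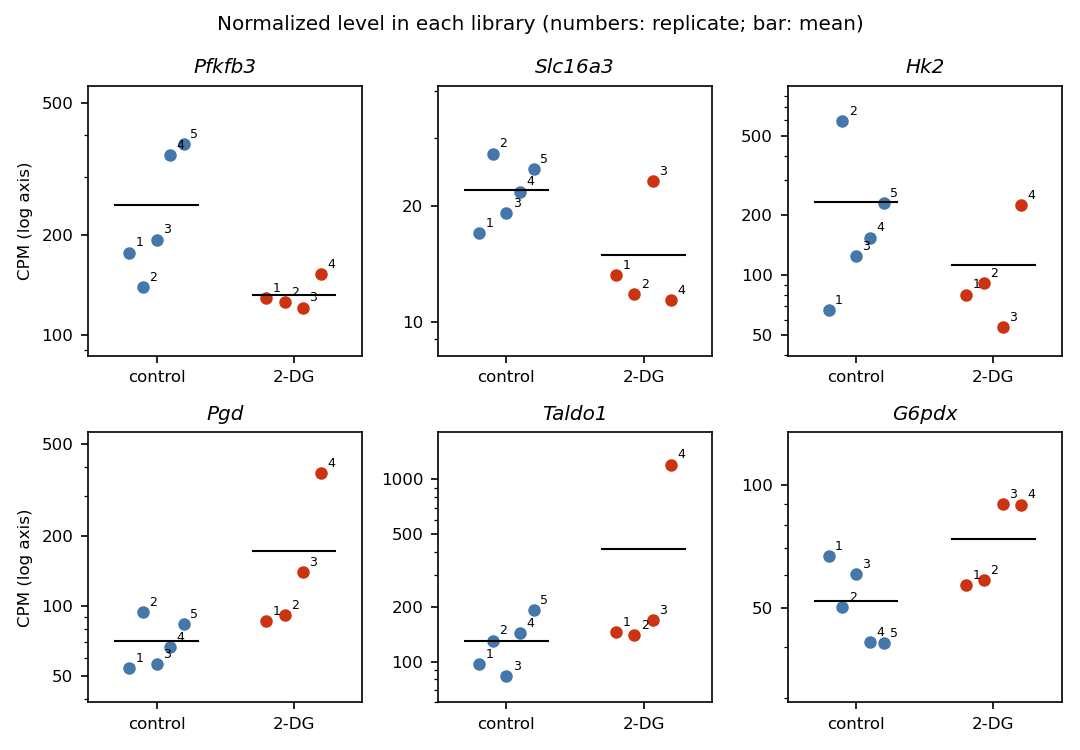
CPM on a log axis of 6 genes in each control and 2-DG library; numbers are replicates and bars are group means. 2-DG replicate 4 lifts the means of Pgd and Taldo1, and control replicate 2 that of Hk2, whereas the 4 2-DG libraries of Pfkfb3 lie between 120.7 and 151.9 CPM.

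The gene for the first and rate-limiting enzyme of the pathway, glucose 6-phosphate dehydrogenase, showed a smaller difference in the edgeR fit of all libraries. G6pdx was at 67.0, 50.2, 60.4, 41.1 and 40.9 CPM in control and 56.7, 58.5, 89.8 and 89.5 CPM under 2-DG. All 4 2-DG libraries were above the control mean of 51.9 ± 11.6 CPM, with 2 of them inside the control range, and the log2 fold change was 0.51 (SE 0.24, unadjusted p = 0.0592, adjusted p = 0.701, edgeR). It was 0.32 with limma-voom (unadjusted p = 0.126) and 0.52 with 2 surrogate variables (unadjusted p = 0.041, adjusted p = 0.228). Leaving out 1 library gave 0.40 to 0.62, with an unadjusted p under 0.05 in 3 of these edgeR fits. Without 2-DG replicate 4, G6pdx was at 0.40 (unadjusted p = 0.145, edgeR) and Taldo1 at 0.23. The other 5 genes of the pathway, H6pd, Pgls, Rpia, Rpe and Tkt, had values from 0.01 (Pgls) to 0.39 (H6pd), with adjusted p from 0.798 to 0.996 by edgeR. Without 2-DG replicate 4, 6 of the 8 pathway genes stayed above 0, and none had an unadjusted p under 0.05 (12.9% of all genes did).

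Glycerol phosphate dehydrogenases draw dihydroxyacetone phosphate off glycolysis and carry reducing equivalents into the mitochondria. Gpd2, the mitochondrial form, was at 23.7, 9.95, 33.8, 34.0 and 34.5 CPM in control and 24.6, 22.4, 36.4 and 55.7 CPM under 2-DG. Gpd1, the cytosolic form, was at 9.08, 5.23, 4.96, 6.9 and 4.75 CPM in control and 8.83, 8.49, 7.11 and 3.69 CPM under 2-DG. The groups overlapped in both, with log2 fold changes of 0.35 (SE 0.39) and 0.18 (SE 0.35).

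Other genes of glucose metabolism gave a like picture. Of 47 such genes 37 passed the filter on low counts, none passed an adjusted p of 0.05 with edgeR (0% of all genes) or DESeq2 (1.35%), and 1 did with limma-voom (5.81%) and 1 with 2 surrogate variables (3.44%). At an unadjusted p under 0.05 edgeR gave 3 of 37 (8.11%, against 7.25% of all genes), and 1 to 4 with 1 library left out, the 1 without 2-DG replicate 1, where 4.79% of all genes were called. DESeq2 gave 3 (10.3% of all genes), limma-voom 11 (26%) and surrogate variables 6 (19.8%). Hk3, a hexokinase of blood-derived cells, was at 1.88, 1.86, 2.6, 3.03 and 4.46 CPM in control and 7.13, 5.1, 3.87 and 6.21 CPM under 2-DG, with control replicate 5 above 2-DG replicate 3. Its log2 fold change was 1.00 (SE 0.37, unadjusted p = 0.0211, adjusted p = 0.616, edgeR). Tktl1, a transketolase-like gene, was at 0.763 to 4.26 CPM in control and 0.34 to 1.2 CPM under 2-DG (log2 fold change -1.78, SE 0.62, adjusted p = 0.602, edgeR), and Ldhd, a D-lactate dehydrogenase, at 2.6 to 7.56 and 2.46 to 3.63 CPM (-0.86, SE 0.37, adjusted p = 0.682, edgeR). Among 11 regulators of glycolytic genes, such as Hif1a, Myc and Txnip, none passed at an adjusted p of 0.05 with any of the tools, and 0 had an unadjusted p under 0.05 with edgeR or DESeq2, 2 with limma-voom (26% of all genes) and 4 with 2 surrogate variables (19.8%).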

How the data were processed

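Total RNA of the 9 explant libraries was sequenced in paired reads of 101 bases from a stranded total RNA kit with 4 ng of input and 13 PCR cycles, per the labels. The authors deposited estimated counts per gene and per transcript, not scaled between libraries; the submitters' processing notes name kallisto and GRCm38, with versions not given in the sources used here. Gene and transcript totals matched, but genes were not the sums of their transcripts. A deposited CPM table and a table of the authors' own comparison (fold changes and p-values) were not used. Counts were rounded, which moved totals by at most 0.00377%, filtered (filterByExpr, 21049 genes), TMM-scaled and fitted with edgeR 4.0.16 in R 4.3.3 (glmQLFit with legacy=TRUE, group as the only term), with Benjamini-Hochberg adjustment over all genes tested. Symbols and coordinates came from GENCODE M21 (99.4% of gene IDs had a symbol). CPM used the scaled library size, and 3 counts were 0.0556 to 0.255 CPM. Ratios (0.5 CPM added) and the Pkm share were compared by exact two-sided permutation over libraries. Alternatives used limma 3.58.1, DESeq2 1.42.0, sva 3.50.0, other scaling and filtering, a replicate block, and each library left out. The members and gene lists were chosen with earlier results of these data known. Values in every library are given for members at an unadjusted p under 0.05, with groups that do not overlap, or with the 2 smallest p of their step (Gpi1 and G6pdx were added after their values were seen). The 3 members of the highest level per length are named, as are other pathway genes and regulators at an unadjusted p under 0.05 or with groups that do not overlap. p-values measure the spread between these libraries. Eno1b, G6pd2 and a 2nd entry of the symbol Aldoa had at most 64.4 counts per library; copies of other members were not looked at.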

Additional observations from a re-analysis of the deposited data

Results flagged for a closer look

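In 8 of 94 groups of 4 or 5 libraries looked at (each member, each ratio and the Pkm M1 share, in control and in 2-DG), 1 library lay far from the others by Dixon's test at 95%. Gene levels entered this test as log2 values, although CPM are printed here. Chance alone flags about 1 in 20 groups. Control replicate 2 was the high library for Gpi1 (1245 CPM, others 340.8 to 486.8), Pfkl (305.3 CPM, others 98.7 to 136.3) and Ldha (805.1 CPM, others 335.6 to 363.4). 2-DG replicate 4 was the high library for Taldo1 (1207 CPM, others 139.7 to 169.4) and Rpe, the gene for ribulose phosphate epimerase (22 CPM, others 19.1 to 19.4), and the low library for Pfkp (386.5 CPM, others 793.1 to 877.0). It also had the highest log2 ratio of Hk2 to Hk1 of its group (-0.87, others -3.06 to -2.80). Control replicate 4 had the lowest log2 ratio of Slc16a3 to Slc16a1 of its group (-2.60, others -2.28 to -2.18).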

How the results depend on the processing

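The count of members past an adjusted p of 0.05 was 0 in the edgeR fit and stayed 0 with other scaling, no filter, robust=TRUE, DESeq2 and every library left out, but was 1 with limma-voom (Pfkfb3) and 2 with 2 surrogate variables (Pfkfb3 and Pgd). At an unadjusted p under 0.05 the 3 members became 7 with limma-voom, 11 with 2 surrogate variables, 2 with DESeq2, 5 with sums of transcript counts (an alternative chosen after seeing the data; 7.17% of all genes) and 2 to 4 without 1 library (4.63% to 12.9%). The median log2 fold change of the members ran from -0.08 to 0.21 without 1 library, and was 0.19 with limma-voom and with surrogate variables and -0.04 with upper-quartile scaling. Groups that did not overlap numbered 0, but 1 with upper-quartile scaling (Pfkfb3; 2.71% of all genes), 1 with library size only (Pgd; 2.89%), and 0 to 2 without 1 library, where 3.36% to 9.25% of all genes did not overlap (Pfkfb3 and Pgd without control replicate 2, Rpe without control replicate 3, Slc16a3 when 2-DG replicate 3 was left out and Pfkfb3 when 2-DG replicate 4 was). Whether the replicate numbers pair the libraries is unclear, and the labels name nothing that same-numbered libraries alone share. Deviations from the group means of same-numbered libraries correlated at 0.451, -0.155, 0.102 and 0.205. In 3 of 8 libraries with a shared number, the highest correlation with the other group was that of the same number. A fit with the replicate block, which drops control replicate 5 from the contrast, gave 0 members after adjustment, 4 at an unadjusted p under 0.05 (H6pd added; 6.42% of all genes) and a median of -0.01.

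Of the 36 members 20 changed sign in some fit and 16 in none, Pfkfb3, Pgd and Taldo1 among the 16. The cause was not tested. For 12 of the 20, log2 fold changes turned as follows: with upper-quartile scaling Slc2a3 -0.01, Gpi1 -0.06, Pfkfb4 -0.03 and Pgls -0.09; with library size only Pgls -0.07; without the filter Pfkfb2 0.02; with limma-voom Pgk1 -0.05, Pfkfb2 0.45, Ldha 0.05, Bsg 0.18, Pgls -0.13 and Gpd2 -0.25; with surrogate variables Slc2a3 -0.28, Aldoc 0.29, Pfkfb2 0.15, Ldha 0.15, Bsg 0.08 and Gpd1 -0.01; with the replicate block Slc2a3 -0.39, Pfkfb4 -0.08, Bsg 0.01 and the log2 ratio of Slc2a3 to Slc2a1 -0.33; with sums of transcripts Slc2a3 -0.13, Pfkfb4 -0.10 and Pgls -0.12. Without 1 library each, values ran from -0.34 to 0.37 (Slc2a3), -0.14 to 0.57 (Gpi1), -0.01 to 0.48 (Aldoa), -0.90 to 0.25 (Aldoc), -0.15 to 0.47 (Pgk1), -0.22 to 0.38 (Pfkfb2), -0.08 to 0.17 (Pfkfb4), -0.26 to 0.21 (Ldha), -0.13 to 0.08 (Bsg) and -0.28 to 0.19 (Pgls). The other 8 turned too, with ranges without 1 library of -0.17 to 0.39 (Pfkl), -0.22 to 0.32 (Pfkm), -0.39 to 0.22 (Pfkp), -0.07 to 0.31 (Tpi1), -0.14 to 0.35 (Pgam1), -0.38 to 0.49 (Eno1), -0.17 to 0.24 (Eno2) and -0.15 to 0.23 (Rpia). Of these, Pgam1, Eno2 and Rpia also turned with upper-quartile scaling and library size only, Pfkl without the filter, Pfkl, Pfkp, Eno1 and Rpia with limma-voom, Pfkl, Pfkp, Eno1 and Eno2 with surrogate variables, Pfkm, Tpi1, Pgam1, Eno1 and Eno2 with the replicate block, and Pfkp and Eno2 with sums of transcripts. The difference in Pkm M1 share ran from -1.38 to 7.1 percentage points, and the differences in log2 ratio from -0.33 to 1.00 (Slc2a3 to Slc2a1), -0.17 to 0.22 (Pfkm to Pfkl), -0.30 to 0.03 (Pfkp to Pfkl), -0.43 to 0.28 (Eno2 to Eno1) and -0.28 to 0.52 (Gpd2 to Gpd1). The spread between libraries was wide (biological coefficient of variation 51.5%).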
